A study of Mus musculus with 16 samples.

Results

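The regions described here are the stretches just beyond the annotated ends of mouse genes. Each window ran from the first base beyond the end of a protein_coding autosomal gene of the GENCODE M21 annotation (mouse genome build GRCm38, which is the mm10 build of the deposited files) to 5 kb further downstream. A window was kept where no other gene record of any type lay within 10 kb beyond the end. RefSeq, a second annotation, lists another gene record within 10 kb beyond the end of 1036 members (13.4%), and for 766 (9.94%) its own record of the gene runs over 100 bp further. The rule kept 7709 of 20807 windows, of which 7701 were distinct, since 16 genes shared an end with another gene. No measured value entered this choice.

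The study compared wild-type Atxn7l3+/+ (WT) with Atxn7l3-/- (KO) mouse embryonic stem cells (mESCs) and mouse embryonic fibroblasts (MEFs), on a mixed DBA/2 x C57BL/6 background and without any treatment. The mESCs were derived from blastocysts and grown with LIF and kinase inhibitors, and the MEFs were grown from E10.5 embryos from which head and gut had been removed. In the KO the Atxn7l3 gene, which encodes an adaptor protein of the histone deubiquitylation modules, carries a null allele in every cell. Chromatin immunoprecipitation followed by sequencing (ChIP-seq) was performed for RNA polymerase II (Pol II) and for histone H2B carrying a single ubiquitin (H2Bub1), with 1 library for each genotype, cell type and mark, that is 8 libraries and 8 peak lists. Input libraries and libraries for Pol II Ser2P in mESCs, a phosphorylated form of Pol II, were not analysed here. With 1 library per group no difference between genotypes can be set against replicate spread, so no test was made, and the 95% intervals given below cover counting error over windows only. A difference between a WT and a KO library therefore cannot be told apart from a difference between those 2 libraries. The study's methods give n = 1 for each genotype and cell type.

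Pol II does not stop at the annotated end of a gene. As background, the nascent RNA is cut at a poly(A) signal, commonly the hexamer AATAAA or a variant of it, while the polymerase transcribes on and slows down beyond that point until the exonuclease Xrn2 degrades the remaining RNA and the enzyme is released. H2Bub1 is laid down behind transcribing polymerase by the ubiquitin ligases RNF20 and RNF40, is found mostly over the bodies of active genes, and is removed by USP22 and related enzymes that need ATXN7L3. The question these windows address is how far either signal runs past the gene and how that differs between the genotypes.

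The 8 lists held between 11963 and 48952 peaks, and in each cell type the KO list was longer for H2Bub1 (48952 against 40979 in mESCs, 28856 against 19725 in MEFs) and shorter for Pol II (11963 against 17074, and 32232 against 45870). Since longer lists cover more windows, the main values were also computed with both lists of a pair cut to equal length. All 6 mESC markers (Nanog, Pou5f1, Sox2, Zfp42, Tfcp2l1 and Dppa5a) had a Pol II peak within 1000 bp of the start site in both mESC lists, against 0 of 6 in WT MEFs and 1 of 6 (Tfcp2l1) in KO MEFs. Of 6 fibroblast markers, 6 had a promoter peak in WT MEFs and 5 in KO MEFs (Postn was without one), and 0 in either mESC list. Of the 13 markers of epithelial, endothelial and blood cells, Cdh1 and Epcam had a promoter peak in both mESC lists, Kdr in WT MEFs, Pecam1 in KO MEFs and Spi1 in both MEF lists. Atxn7l3 itself (chr11:102289300-102296631) was not a member because another gene record lies within 10 kb beyond its end.

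The windows with the most Pol II over all 4 Pol II lists, ranked by the smallest covered length among the lists, included those beyond Rps12, Rps24 and Rplp1, which encode ribosomal proteins, beyond Ptma, which encodes the acidic nuclear protein prothymosin alpha, and beyond Hspa4, which encodes a chaperone of the Hsp70 family. Their last 30 bases are printed first, with those of Btg1, an antiproliferative gene whose window was fully covered by H2Bub1 in all 4 H2Bub1 lists. The sequences are of GRCm38 and are written 5′ to 3′ on the strand of the gene, with the hexamers AATAAA and ATTAAA in capitals.

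Rps12 end (chr10:23785183-23785212, minus strand): aAATAAAttttggctgatttttctcttgta

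Rps24 end (chr14:24496930-24496959, plus strand): aatgcAATAAAcattgaatggaaaactagg

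Rplp1 end (chr9:61913284-61913313, minus strand): ttaagttggctAATAAAgagctgaacctgt

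Ptma end (chr1:86530683-86530712, plus strand): gctgagttgttctaacaatggtgtctcaaa

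Hspa4 end (chr11:53259814-53259843, minus strand): actAATAAAagaaacctgtcttaacttgaa

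Btg1 end (chr10:96622780-96622809, plus strand): gaATTAAAaaaaaaaaaagacacccatcat

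The annotated end of Ptma carries neither hexamer in the last 40 bases of the gene. The strongest summit of each window, by its definition, lies beyond the end. The 101 bases around the strongest WT mESC Pol II summit beyond Rps12, Rps24, Rplp1, Ptma and Hspa4 follow, with runs of GGGG in capitals and no run of TTTTT found in them.

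Rps12 summit, 2081 bp beyond the end (chr10:23783052-23783152, minus strand): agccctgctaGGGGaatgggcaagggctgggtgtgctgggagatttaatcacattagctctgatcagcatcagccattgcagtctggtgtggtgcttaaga

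Rps24 summit, 2076 bp beyond the end (chr14:24498985-24499085, plus strand): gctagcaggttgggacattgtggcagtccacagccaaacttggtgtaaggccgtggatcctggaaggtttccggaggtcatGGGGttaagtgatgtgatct

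Rplp1 summit, 2405 bp beyond the end (chr9:61910829-61910929, minus strand): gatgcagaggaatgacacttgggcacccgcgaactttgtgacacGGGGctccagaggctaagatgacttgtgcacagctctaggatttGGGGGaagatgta

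Ptma summit, 1385 bp beyond the end (chr1:86532047-86532147, plus strand): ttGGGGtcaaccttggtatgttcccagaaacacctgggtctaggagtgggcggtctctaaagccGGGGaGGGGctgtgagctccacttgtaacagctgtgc

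Hspa4 summit, 475 bp beyond the end (chr11:53259289-53259389, minus strand): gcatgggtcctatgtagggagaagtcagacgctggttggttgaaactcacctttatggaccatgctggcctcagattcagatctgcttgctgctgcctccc

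Over all 7709 members, AATAAA or ATTAAA was found on the gene strand in the last 40 bases of 5409 genes (70.2%, 95% exact interval 69.1% to 71.2%), against 69.6% of all 20807 genes and 4.53% of the 40-base stretches that start 2001 bp beyond the members' ends. Members with WT MEF Pol II in the window carried a hexamer in 79.4% of cases (77.4% to 81.2%) and members without it in 67.3% (66.1% to 68.5%). Among members that had a WT MEF Pol II peak at the promoter, the window was occupied for 47.5% (45.6% to 49.3%) of those with a hexamer and for 42.7% (39.2% to 46.3%) of those without, intervals that overlap. The same shares were 27.7% and 27.1% for KO MEFs, 21.5% and 19.7% for WT mESCs and 10.9% and 9.65% for KO mESCs, with overlapping intervals each time. GGGG was found on the gene strand in the 101 bases around 37.5% of WT mESC summits (33.6% to 41.5%, n = 608), against 23.7% (20.4% to 27.3%) of 101-base stretches centred 4001 bp beyond the ends of the same genes and 21% of such stretches of all members. TTTTT was found around 4.44% of these summits and in 15.3% of the distal stretches, and in KO mESCs around 10.1% (6.85% to 14.1%) and in 13.9% (10.1% to 18.4%), where the intervals overlap. In MEFs it was found around 9.50% (WT) and 8.51% (KO) of summits, against 15.5% and 13.4%. The WT mESC summits were also richer in G and C, with a median of 52.5% (52.5% to 53.5%) against 47.5% (47.5% to 48.5%) in the distal stretches. For KO mESCs the medians were 51.5% and 48.0%, for WT MEFs 48.5% and 45.5%, and for KO MEFs 49.5% and 45.5%, and the part of base composition in the motif shares was not tested.

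Pol II peaks reached their highest frequency beyond the gene end rather than at it. In WT mESCs, 0.908% of members had a Pol II peak over the last base of the gene, and the share climbed to 2.88% (2.52% to 3.28%) at 1040 bp beyond the end, a ratio of 3.17. In WT MEFs it climbed from 4.72% at the end to 11.5% (10.8% to 12.3%) at 1620 bp. In KO mESCs the maximum was 1.18% (0.951% to 1.45%) at 710 bp, up from 0.467% at the end. In KO MEFs it was 5.28% (4.79% to 5.80%) at 1000 bp, up from 2.04%. The order of the 4 maxima was therefore WT MEFs, KO MEFs, WT mESCs and KO mESCs, with intervals that did not overlap.

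**Figure D1:**
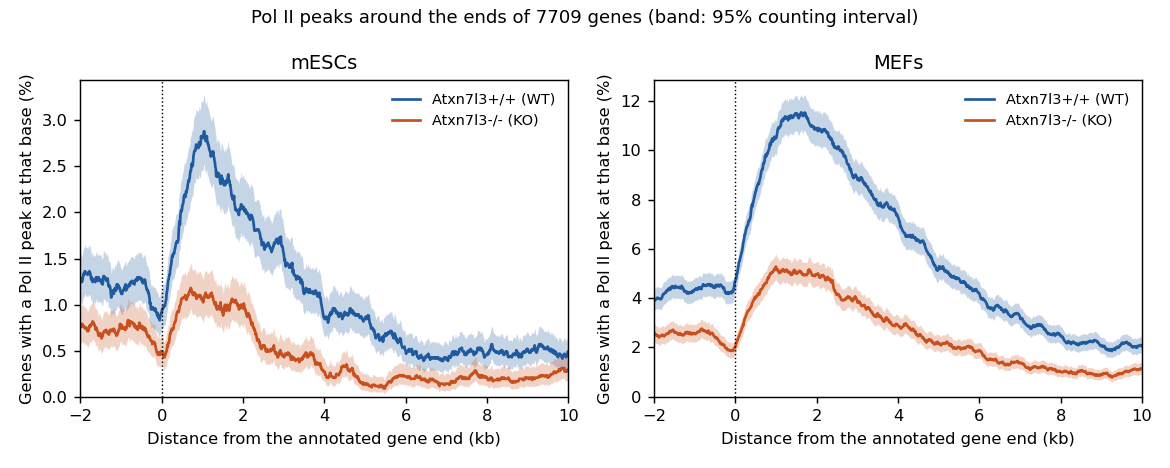
Share of the 7709 genes (y axis, percent) with a Pol II peak over the base at each distance from the annotated end (x axis, kb, negative inside the gene) in mESCs and MEFs, 1 library per line, with the 95% exact counting interval as a band. The WT maxima are 2.88% at 1040 bp in mESCs and 11.5% at 1620 bp in MEFs, and the KO lines stay below the WT lines from the end to 5 kb beyond it.

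The distance of the maximum was loosely fixed by these data. The distances whose share lay within the counting interval of the maximum ran from 740 to 1310 bp in WT mESCs and from 440 to 2040 bp in KO mESCs, and from 1050 to 2200 bp in WT MEFs and from 800 to 2280 bp in KO MEFs. The WT and KO ranges overlapped in both cell types, and the order of the WT and KO maxima turned under some other settings. In windows with a peak summit in each genotype, the strongest summit lay at a median 53 bp closer to the end in KO mESCs (median difference -53 bp, 95% interval -109 to 2, n = 223) and at a median 21 bp further out in KO MEFs (-6 to 41, n = 833), and both intervals include 0. The summit lay within 250 bp of its WT place in 50.7% of these windows in mESCs and in 43.6% in MEFs.

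The far edge of Pol II differed more than its summit. The most downstream base of the peaks that touch the window lay at a median of 2572 bp (2329 to 2749) in WT mESCs and 2186 bp (2024 to 2369) in KO mESCs, and at 3736 bp (3583 to 3833) in WT MEFs and 3296 bp (3155 to 3463) in KO MEFs. Within windows occupied in both genotypes the KO edge was nearer to the gene by a median 384 bp in mESCs (median difference -384 bp, -488 to -252, n = 237) and by a median 398 bp in MEFs (-398 bp, -514 to -332, n = 911). It was nearer in 79.3% and 76.1% of these windows. A called edge moves with the height of a peak over its surroundings, and the part of peak height in this difference was not tested.

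Fewer windows held Pol II in the KO libraries. A window was counted as occupied when at least 1 bp of it lay in a peak. In mESCs 632 windows (8.20%, 7.60% to 8.83%) were occupied in WT and 301 (3.90%, 3.48% to 4.36%) in KO, beside 21.7% and 13.8% of the windows of all 20807 genes. In MEFs 1813 (23.5%, 22.6% to 24.5%) were occupied in WT and 1018 (13.2%, 12.5% to 14%) in KO, beside 40.7% and 29.3% of all windows. Covered bases differed in the same direction: 1.65% of window bases against 0.639% in mESCs, a KO over WT ratio of 0.389, and 8.72% against 3.83% in MEFs, a ratio of 0.439.

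The windows that held Pol II in KO were largely among those that held it in WT. In mESCs 237 windows (3.07%) were occupied in both genotypes, beside 12.2% of all windows, 395 were WT only and 64 KO only. Over all genes 9.47% of windows were WT only and 1.63% KO only in mESCs, where these windows gave 5.12% and 0.830%. In MEFs 911 (11.8%) were occupied in both, beside 27.7% of all windows. A further 902 were WT only and 107 KO only, that is 11.7% and 1.39% of the members, beside 13.0% and 1.58% of all windows. Of the KO windows, 78.7% in mESCs and 89.5% in MEFs were also WT windows, and of the WT windows 37.5% (33.7% to 41.4%) and 50.2% (47.9% to 52.6%) were also KO windows. Over all genes 2540 of 4511 WT windows in mESCs and 5760 of 8470 in MEFs were also KO windows. In windows occupied in both genotypes the highest fold enrichment over the authors' background differed by a median log2 ratio of -0.18 (-0.25 to -0.13) in mESCs and -0.43 (-0.47 to -0.39) in MEFs.

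Weak WT windows were absent from the KO list more often than strong ones. WT windows were ranked by fold enrichment into 4 equal classes. Of the WT mESC class with the lowest fold enrichment (2.20 to 3.30), 13.9% (8.94% to 20.3%) were also occupied in KO, and of the class with the highest (4.67 to 31.4), 73.4% (65.8% to 80.1%). In MEFs the same shares were 19.8% (16.3% to 23.8%) and 87.2% (83.8% to 90.1%). The part that a cut on peak strength has in this gradient was not tested.

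The difference beyond the end was also seen among genes whose promoter held Pol II in both genotypes. Members with a Pol II promoter peak in both genotypes numbered 1744 in mESCs, and of these 23.5% (21.5% to 25.6%) had an occupied window in WT and 11.9% (10.4% to 13.5%) in KO. In MEFs they numbered 3178, with 49.8% (48.1% to 51.6%) in WT and 27.8% (26.2% to 29.4%) in KO. Where promoter and window were occupied in both genotypes, the median log2 KO over WT fold enrichment in mESCs was -0.21 (-0.28 to -0.14) in the window and 0.13 (0.02 to 0.20) at the promoter (n = 175). In MEFs it was -0.45 (-0.48 to -0.41) in the window and -0.20 (-0.25 to -0.16) at the promoter (n = 813). The intervals of window and promoter did not overlap in either cell type.

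Measured by covered bases along the gene, the KO over WT ratio for Pol II was 0.827 at promoters, 0.713 over gene bodies, 0.419 over the last 5 kb of genes, 0.389 in the windows and 0.380 from 5 to 10 kb beyond the end in mESCs. The same series in MEFs was 0.844, 0.646, 0.510, 0.439 and 0.431. In the full lists of both cell types the ratio was thus lowest in the stretches beyond the end. For lists of equal length, the longer of each pair was cut to the number of peaks of the shorter, keeping the highest -log10 p. The window ratio was then 0.492 in mESCs and 0.509 in MEFs. The other stretches were not recomputed with such lists, so whether the decline along the gene holds in them was not tested.

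**Figure D2:**
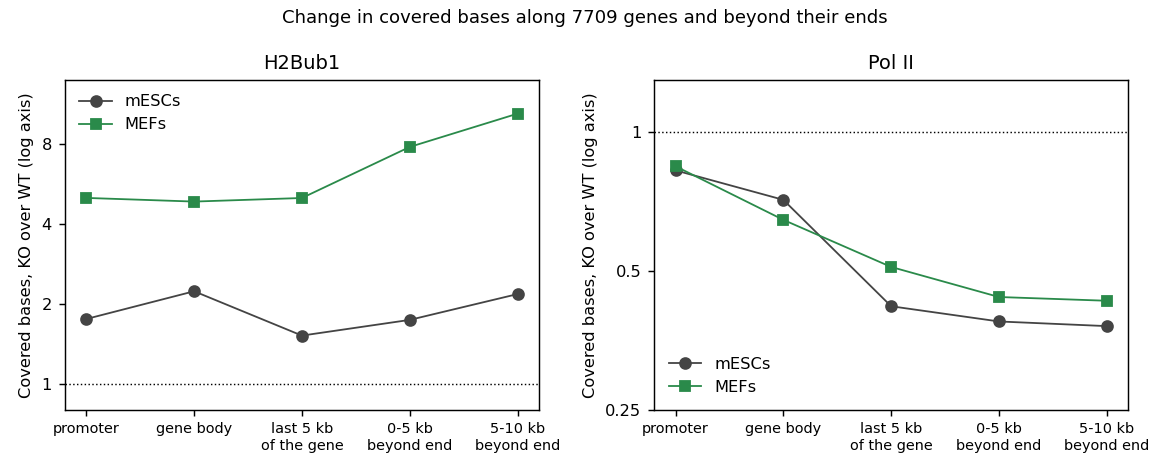
KO over WT ratio of the bases covered by peaks (y axis, log scale) at promoters (1000 bp on either side of the start site), gene bodies, the last 5 kb of genes of at least 5000 bp, the windows and the following 5 kb (x axis), for the 7709 members, 1 library per genotype. Pol II ratios decline from 0.827 and 0.844 at promoters to 0.380 and 0.431 beyond 5 kb, while H2Bub1 ratios lie above 1 in every stretch.

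The windows with the highest fold enrichment in WT mESCs, among those occupied in both genotypes, followed Rpl3, Hist1h2bn and Ptma. Beyond Rpl3, a ribosomal protein gene (chr15:80077791-80091868), the fold enrichment was 31.4 (WT) and 19.7 (KO) in mESCs and 30.01 (WT) and 17.7 (KO) in MEFs. Its Pol II covered 3345 and 2437 bp in mESCs and 3351 and 3202 bp in MEFs. Fold enrichment and covered length were lower in KO in both cell types. The WT MEF fold enrichment belongs to a peak without its summit in the window, while the KO MEF summit lay 1436 bp beyond the end. Hist1h2bn, a histone H2B gene (chr13:21754123-21754503), had 21.7 and 18.5 in WT and KO mESCs from a peak that spans this short gene and runs 813 and 758 bp past its end. Ptma had 21.5 and 17.5 in mESCs and 19.5 and 16.0 in MEFs, and its Pol II covered 3549 and 3440 bp in mESCs and 4866 and 3489 bp in MEFs.

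Beyond Rps12, Pol II covered 4780 bp in WT mESCs, 4239 bp in KO mESCs and the full 5000 bp in both MEF libraries. Rps24 had 5000 and 4011 bp in WT and KO mESCs and 5000 and 4820 bp in WT and KO MEFs. Rplp1 had 4509 and 3623 bp in mESCs and 4837 and 4801 bp in MEFs. In each of these 3 ribosomal protein genes the KO value was lower in mESCs, and in MEFs it was lower for Rps24 and Rplp1 and equal for Rps12. Hspa4 had 4267 and 3398 bp in mESCs and 4480 and 3979 bp in MEFs. Rps12 and Rplp1 have another RefSeq gene record within 10 kb beyond the end that GENCODE M21 does not list.

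**Figure D3:**
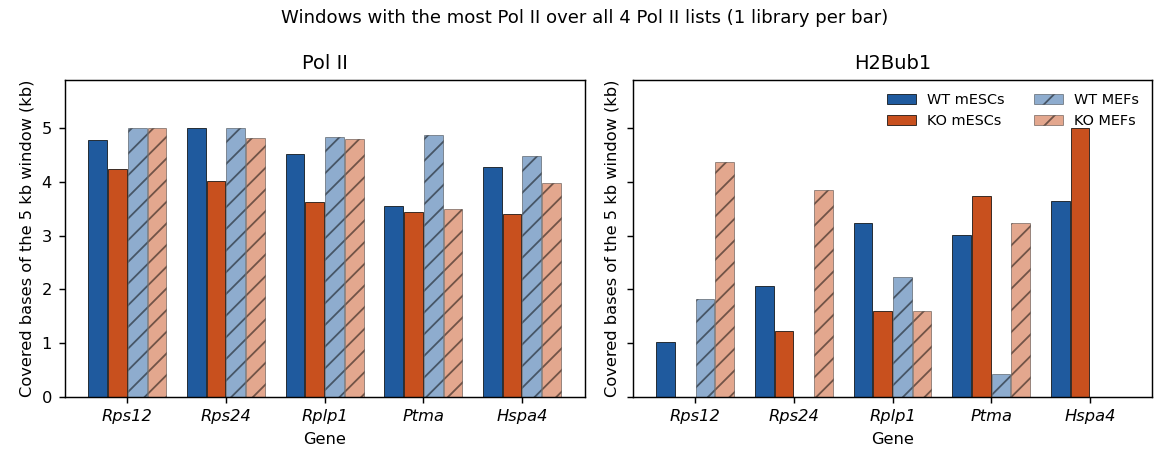
Bases of the 5 kb window (y axis, kb) covered by Pol II (left) and H2Bub1 (right) beyond 5 genes ranked among the highest by their smallest Pol II coverage over the 4 lists, 1 library per bar. Pol II covers at least 3398 bp in every library, and H2Bub1 ranges from 0 to 5000 bp.

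In MEFs the windows with the highest fold enrichment in WT, among those occupied in both genotypes, followed Col1a2, Gadd45g and Rhob. Col1a2, a chain of type I collagen (chr6:4504814-4541544), was followed by Pol II at 47.0 in WT and 10.1 in KO MEFs, over 4170 and 2807 bp. Its promoter peak was at 43.3 and 19.4, and neither mESC list had Pol II in the window. Gadd45g, a stress-response gene (chr13:51846678-51848468), had 45.6 in WT and 22.3 in KO MEFs, and Rhob, a small GTPase gene (chr12:8497661-8500009), had 42.6 and 17.1. In both short genes the strongest peak touching the window was the promoter peak.

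Among windows that held Pol II in WT MEFs only, Prrx1, a transcription factor gene of mesenchyme (chr1:163245119-163313710), had 4055 bp covered at a fold enrichment of 20.7 in WT and 0 bp in KO, while its promoter peak was at 18.5 in WT and 5.84 in KO. Gm10638 and Tmem95 completed the 3 windows of highest fold enrichment in this class, at 23.4 and 20.7, with 398 and 833 bp covered by peaks that reach over the end from the gene. Their RefSeq records run 457 and 630 bp beyond the GENCODE ends, and RefSeq lists another gene record within 10 kb beyond Tmem95. In WT mESCs only, Hspa8, a constitutive chaperone gene, ranked first by fold enrichment (16.5) although 13 bp of its window were covered. Ankrd36, an ankyrin repeat gene (chr11:5569684-5689337), had 3879 bp at 8.56 and Neb, the gene of the muscle protein nebulin, 382 bp at 7.43, neither with a promoter peak.

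Windows with Pol II in KO only were few, and those with the highest fold enrichment are given here. In MEFs they were Rasl11a, a Ras-like GTPase gene, with 2332 bp at 29.8, where the promoter peak was at 10.7 in WT and 29.8 in KO. Cyp2d22, a cytochrome P450 gene, had 2716 bp at 20.7. Gata6, a transcription factor gene of endoderm and heart, had 4616 bp at 12.3, and its promoter peak was at 6.37 in WT and 22.2 in KO. All 3 also held H2Bub1 in KO MEFs only, over 743, 2690 and 3529 bp. The 3 highest of the 64 in mESCs were Clec4a1, a C-type lectin gene, with 1753 bp at 8.88, Kcnk12, a potassium channel gene, with 814 bp at 6.51, and Xrcc1, a DNA repair gene, with 289 bp at 5.13.

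H2Bub1 had the opposite shape to Pol II. Its frequency was higher inside the gene, declined across the end and was lower still at 5000 bp beyond it. In WT mESCs 7.52% of members had an H2Bub1 peak 2000 bp before the end, 3.97% at the end, 1.62% at 2000 bp beyond it and 0.817% at 5000 bp. In KO mESCs the shares were 11.6%, 6.19%, 3.06% and 1.53%. In WT MEFs they were 2.49%, 0.856%, 0.285% and 0.0908%, and in KO MEFs 9.66%, 6.07%, 2.69% and 0.675%. The share at the end was therefore higher in KO in both cell types, and the WT and KO intervals did not overlap there.

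**Figure D4:**
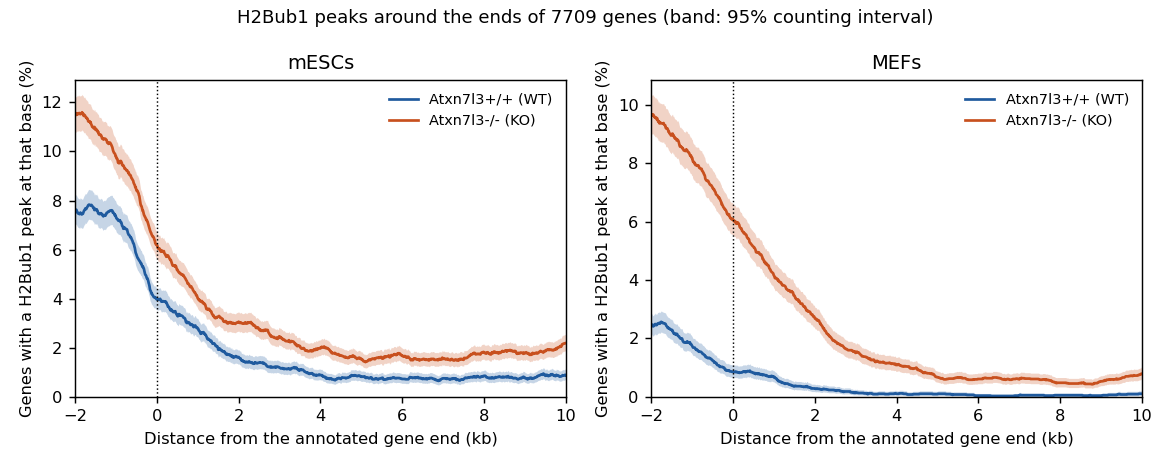
Share of the 7709 genes (y axis, percent) with an H2Bub1 peak over the base at each distance from the annotated end (x axis, kb, negative inside the gene) in mESCs and MEFs, 1 library per line, with the 95% exact counting interval as a band. At the end the shares are 3.97% and 6.19% in WT and KO mESCs and 0.856% and 6.07% in WT and KO MEFs, and at 5 kb beyond it they are 0.817%, 1.53%, 0.0908% and 0.675%.

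The share was down to 50 percent of its value at the end by 1500 bp (WT) and 1630 bp (KO) in mESCs and by 1360 bp (WT) and 1770 bp (KO) in MEFs. No interval was computed for these distances. Beyond the window the share did not decline further in KO mESCs, with 1.505% (1.24% to 1.80%) at 7500 bp and 2.19% (1.88% to 2.54%) at 10000 bp, and in the other 3 libraries it was also higher at 10000 than at 7500 bp, with overlapping intervals. The KO line in MEFs thus started from a share about as high as that of KO mESCs, whereas the WT lines started at different heights.

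More windows held H2Bub1 in the KO libraries. In mESCs 631 windows (8.19%, 7.58% to 8.82%) were occupied in WT and 865 (11.2%, 10.52% to 11.9%) in KO, beside 26.1% and 30.3% of the windows of all 20807 genes. In MEFs 122 (1.58%, 1.32% to 1.89%) were occupied in WT and 580 (7.52%, 6.94% to 8.14%) in KO, beside 7.80% and 23.6% of all windows. Covered bases were 1.73% and 3.02% of the window bases in WT and KO mESCs, a ratio of 1.74, and 0.326% and 2.55% in WT and KO MEFs, a ratio of 7.82. Over gene bodies the same ratio was 2.24 in mESCs and 4.87 in MEFs, so the window ratio was below that of gene bodies in mESCs and above it in MEFs. From 5 to 10 kb beyond the end it was 2.18 and 10.4. With lists of equal length the window ratio was 1.55 in mESCs and 6.86 in MEFs, and with peaks of -log10 q of at least 3 it was 2.37 and 23.7.

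In mESCs 406 windows (5.27%) held H2Bub1 in both genotypes, beside 21.3% of all windows. A further 225 were WT only and 459 KO only, that is 2.92% and 5.95% of the members beside 4.74% and 8.98% of all windows. In MEFs 106 windows (1.38%) held it in both, beside 7.46% of all windows. There 16 were WT only and 474 KO only, that is 0.208% and 6.15%, beside 0.332% and 16.1% of all windows. Among windows occupied in either genotype, KO covered more bases in 712 of 1090 in mESCs (65.3%, 62.4% to 68.1%) and in 563 of 596 in MEFs (94.5%, 92.3% to 96.2%). In windows occupied in both, the median log2 KO over WT fold enrichment was 0.00 (-0.02 to 0.04) in mESCs and 0.51 (0.41 to 0.66) in MEFs. The mESC windows occupied in both thus held H2Bub1 at a like fold enrichment over longer stretches, a median of 1486 bp in KO against 952.5 bp in WT.

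The H2Bub1 of a window ran over the gene end in a peak, lay in a separate peak beyond it, or both. A peak crossed the end in 48.5% (44.5% to 52.5%) of occupied windows in WT mESCs, 55.1% (51.8% to 58.5%) in KO mESCs, 54.1% (44.8% to 63.2%) in WT MEFs and 80.7% (77.2% to 83.8%) in KO MEFs. KO MEFs were the highest of the 4. Where a peak crossed the end in both genotypes, it ran past it by a median of 881 bp (701 to 1061) in WT and 1192.5 bp (943 to 1578) in KO mESCs (n = 204), and by 717 bp (601 to 1034) in WT and 2158 bp (1781 to 3147) in KO MEFs (n = 61). In MEFs the intervals do not overlap, and the KO overhang was the longer in 52 of the 61 genes.

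The most downstream base of the H2Bub1 peaks that overlap the gene itself was compared for genes with such a peak in both genotypes, leaving out separate peaks beyond the end. In mESCs (n = 3147) it lay at a median of -7010 bp (-7798 to -6270) relative to the end in WT and -4767 bp (-5291 to -4227) in KO, where negative positions lie inside the gene. In MEFs (n = 2026) it lay at -16359 bp (-17487 to -14830) in WT and at -5675.5 bp (-6342 to -4998) in KO. With lists of equal length the medians were -6918 bp (WT) and -6024 bp (KO) in mESCs, a smaller difference, and -16283 and -8114 bp in MEFs. With peaks of -log10 q of at least 3 they lay further inside, at -26929 and -20637.5 bp in mESCs and -31084 and -9438 bp in MEFs. In the full lists it was further downstream in KO for 69.4% of the genes in mESCs and 91.5% in MEFs. It passed the end in 9.56% (8.56% to 10.6%) of WT and 14.1% (12.9% to 15.4%) of KO genes in mESCs, and in 3.21% (2.48% to 4.07%) and 18.5% (16.8% to 20.3%) in MEFs.

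**Figure D5:**
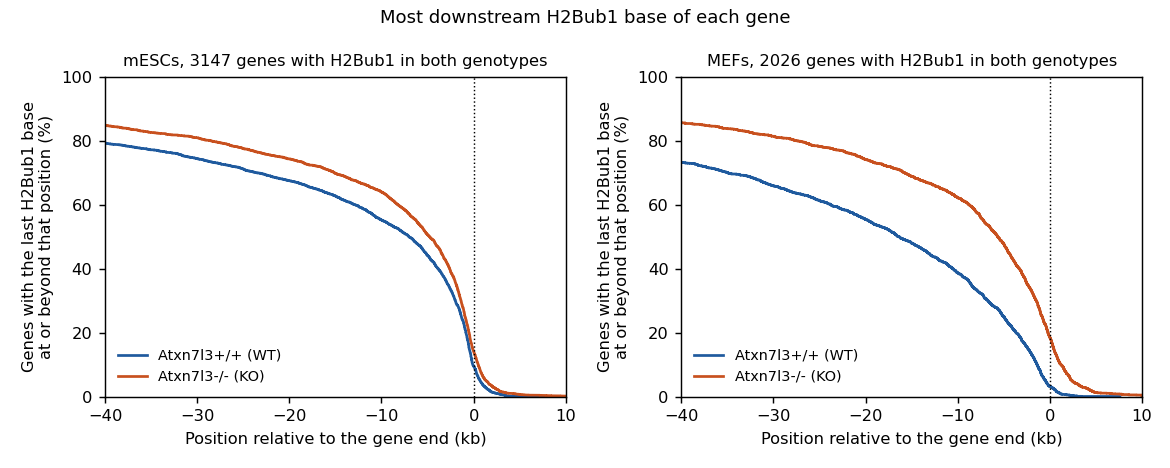
Share of genes (y axis, percent) whose most downstream base of H2Bub1 peaks overlapping the gene lies at or beyond each position relative to the gene end (x axis, kb), for genes with H2Bub1 over the gene in both genotypes, 3147 in mESCs and 2026 in MEFs. At the gene end the lines pass through 9.56% and 14.1% in WT and KO mESCs and 3.21% and 18.5% in WT and KO MEFs.

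Btg1, Ywhag and Klf2 had the most H2Bub1 in WT mESCs among windows occupied in both genotypes. Beyond Btg1 the mark covered all 5000 bp of the window in the 4 libraries and ran 7959 bp past the end in WT mESCs, 7606 bp in WT MEFs and to the 10 kb limit in both KO libraries. Ywhag, a 14-3-3 protein gene (chr5:135908409-135934616), had 5000 bp in every library but WT MEFs, where it had 1024 bp. Klf2, a transcription factor gene (chr8:72319033-72321656), had 4700 and 5000 bp in WT and KO mESCs and 0 and 1773 bp in WT and KO MEFs. In MEFs, Derl1, a gene of protein degradation at the endoplasmic reticulum (chr15:57869502-57892448), had 3411 bp in WT and 4327 bp in KO. Zfp382, a zinc finger protein gene whose RefSeq record runs 5808 bp beyond the GENCODE end, had 3086 and 5000 bp.

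Some windows had no H2Bub1 in the WT list and full coverage in the KO list, and the examples here come first in alphabetical order among those. In mESCs they were Adcy9, an adenylyl cyclase gene (chr16:4287529-4420498), Gm10570, and Grb10, an adaptor gene of insulin signalling (chr11:11930508-12038683). All 3 had 0 bp in both MEF libraries. The RefSeq record of Adcy9 runs 2643 bp beyond the GENCODE end and that of Gm10570 9544 bp, so that the whole window of Gm10570 lies within its own RefSeq record. RefSeq also lists another gene record within 10 kb beyond the ends of Adcy9 and, among the MEF examples, Adamtsl4. In MEFs they were Adamtsl4, a gene of an extracellular protein, Atp6v0e, a proton pump subunit gene, and B230219D22Rik, and each of these 3 held H2Bub1 in both mESC libraries, over 2814 and 5000 bp, 1253 and 839 bp, and 541 and 695 bp in WT and KO.

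The reverse was rarer. In WT mESCs only, Klf5, a transcription factor gene of stem cells (chr14:99298691-99315036), had 3041 bp, Swap70, a signalling adaptor gene, 2703 bp, and Pth1r, the parathyroid hormone receptor gene, 2513 bp. Klf5 also held Pol II in WT mESCs only, over 903 bp. In WT MEFs only, Stxbp3, a vesicle fusion gene, had 1106 bp and Arid4b, a chromatin gene, 896 bp.

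Both marks were present in 308 (WT) and 194 (KO) windows in mESCs and in 111 (WT) and 358 (KO) in MEFs. H2Bub1 was present in 48.7% (44.8% to 52.7%) of Pol II windows in WT mESCs, 64.5% (58.8% to 69.9%) in KO mESCs, 6.12% (5.06% to 7.33%) in WT MEFs and 35.2% (32.2% to 38.2%) in KO MEFs. Seen from H2Bub1, Pol II was present in 48.8%, 22.4%, 91.0% and 61.7% of the windows in the same order. The shares with both marks were not computed over the windows of all 20807 genes. Where both were present, Pol II ran further downstream than H2Bub1 in 65.9% (WT) and 41.8% (KO) of windows in mESCs and in 92.8% (WT) and 80.7% (KO) in MEFs. The share was lower in KO in each cell type, with more H2Bub1 and less Pol II in the KO lists. These are edges of narrow peaks for Pol II and of broad peaks for H2Bub1, and the part of the calling mode was not tested.

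In every Pol II class, windows with more H2Bub1 bases in KO outnumbered windows with fewer. In MEFs it did so in 35.6% (32.5% to 38.8%) of the 911 windows with Pol II in both genotypes, in 13.5% (11.4% to 15.9%) of the 902 with Pol II in WT only, in 20.6% (13.4% to 29.5%) of the 107 with Pol II in KO only and in 1.64% (1.33% to 2.00%) of the 5789 with none. The opposite change was seen in at most 1.87% of the windows of a class. In mESCs H2Bub1 covered more bases in KO in 45.6%, 31.6%, 51.6% and 6.36% of these classes and fewer in 32.1%, 23.3%, 9.38% and 2.88%. Windows with Pol II in WT only thus included 125 with more and 92 with less H2Bub1 in mESCs, and 122 with more and 11 with less in MEFs.

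The longest genes had H2Bub1 beyond their ends least often. Over all members the 5 length classes, from short to long, gave 9.53%, 9.86%, 10.1%, 7.13% and 4.35% in WT mESCs and 10.4%, 8.95%, 9.41%, 7.00% and 1.88% in KO MEFs. Among members with a Pol II promoter peak, the window held H2Bub1 in 40.7% (34.6% to 47.0%) of the shortest 1 of 5 length classes (63 to 5690 bp) and 6.96% (4.89% to 9.54%) of the longest class (83198 bp and over) in WT mESCs. In KO MEFs these shares were 50.8% (45.1% to 56.5%) and 2.72% (1.71% to 4.09%). Among members with a promoter peak Pol II went the same way, with 34.5% (28.7% to 40.6%) and 9.54% (7.12% to 12.5%) in WT mESCs, and 58.3% (52.8% to 63.6%) and 31.8% (28.8% to 35.0%) in WT MEFs. In KO MEFs the Pol II shares were 45.0% and 14%, so that the KO share was a smaller part of the WT share in the longest class than in the shortest. Over all members, with or without a promoter peak, Pol II went the other way in WT MEFs, with 13.6% of the shortest and 21.9% of the longest class, and in KO MEFs these classes had 9.66% and 9.14%. Peaks of a short gene can run through it from the promoter, and their part was not separated.

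Strong promoters went with occupied windows. Within each library, members with a promoter peak were ranked by its fold enrichment into 4 equal classes. In the lowest class of WT MEF promoter peaks 18.2% (15.7% to 20.9%) of members had Pol II in the window, and in the highest class 71.7% (68.6% to 74.6%). In KO MEFs the shares were 10.2% (8.23% to 12.5%) and 47.0% (43.5% to 50.4%). In WT mESCs they were 14.7% (11.8% to 17.9%) and 35.0% (31.0% to 39.1%), and in KO mESCs 6.58% (4.60% to 9.07%) and 20.9% (17.5% to 24.7%). Each KO share was below the WT share of the class of the same rank, and within each library the highest class stood above the lowest. Classes of the same rank held different members and fold ranges, so WT and KO were not matched for promoter strength. The highest class ran from 18.6 to 51.4 in WT MEFs and from 16.2 to 50.1 in KO MEFs.

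Of 31 members among housekeeping and translation genes (ribosomal protein genes, their retained pseudogene-named copies and 4 Rps6k kinase genes included), 20 (WT) and 17 (KO) held Pol II in mESCs and 21 (WT) and 20 (KO) in MEFs, beside 8.20%, 3.90%, 23.5% and 13.2% of all members. Covered bases were lower in KO in 20 of the 31 in mESCs and in 19 in MEFs, and higher in 0 in both, beside 593 lower and 103 higher among all members in mESCs and 1664 and 248 in MEFs. Eno1, a glycolysis gene, had 2413 and 328 bp in WT and KO mESCs and 5000 and 4074 bp in WT and KO MEFs. Ubb, a polyubiquitin gene, had 3138 and 2929 bp and 4414 and 4349 bp. H2Bub1 covered more in KO in 5 and less in 9 of these genes in mESCs, and more in 14 and less in 3 in MEFs, beside 712 more and 376 less among all members in mESCs and 563 and 32 in MEFs.

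Immediate early genes, which respond to serum and stress, had 12 members. All 12 held Pol II in WT MEFs and 11 in KO MEFs, beside 23.5% and 13.2% of all members, with a median of 2933 and 2596.5 bp covered, and Egr3 was the gene without it in KO. H2Bub1 was in 1 of the 12 windows in WT MEFs and in 10 in KO MEFs, beside 1.58% and 7.52% of all members. Ier5 had 0 bp of H2Bub1 in WT and 4696 bp in KO MEFs, Myc, a growth regulator, 0 and 1784 bp, and Fos, an AP-1 subunit gene, 0 and 1248 bp. Ier2 had 843 and 2177 bp in WT and KO MEFs. In mESCs 4 of the 12 windows held H2Bub1 in both genotypes, beside 8.19% (WT) and 11.2% (KO) of all members, with more bases in KO in 3 of them, among them Btg2 with 2137 and 4520 bp.

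Contractile and matrix genes had 19 members, and in MEFs Pol II was in 18 of these windows in WT and 12 in KO, beside 23.5% and 13.2% of all members. Fewer bases were covered in KO in 17, beside 1664 of the 1920 occupied windows of all members. Col3a1, a fibrillar collagen gene, had 5000 and 3121 bp in WT and KO MEFs. Col5a1, Fbn1 (fibrillin), Postn (periostin) and Thbs2 (thrombospondin) had 5000, 4545, 3975 and 4957 bp in WT, and all had 0 bp in KO. Tpm1, a tropomyosin gene, had 5000 bp in both, and Dcn, a matrix proteoglycan gene, had 0 bp in WT and 3045 bp in KO. The promoter fold enrichment was also lower in KO MEFs at Col3a1 (49.2 and 18.1), Col5a1 (25.1 and 13.3), Fbn1 (39.2 and 16.3) and Thbs2 (37.4 and 4.15), and Postn had no promoter peak in KO. H2Bub1 was in 2 and 3 of the 19 windows in WT and KO MEFs, beside 1.58% and 7.52% of all members.

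Pluripotency genes had 12 members, of which 9 held Pol II in WT mESCs and 5 in KO mESCs, beside 8.20% and 3.90% of all members. Covered bases were lower in KO in all 9, beside 593 of the 696 occupied windows of all members. Nanog had 2205 and 1562 bp, Fgf4, a growth factor gene of the epiblast, 3444 and 2634 bp, Dppa5a 3647 and 2382 bp, and Tdgf1, a Nodal co-receptor gene, 2426 and 0 bp. H2Bub1 was in 9 windows in WT and 7 in KO mESCs, beside 8.19% and 11.2% of all members, and covered fewer bases in KO in 8 genes, against 376 of 1090 occupied windows with fewer among all members. Zfp42 had 2994 and 2902 bp and Nanog 1823 and 1194 bp. Mycn was the gene with H2Bub1 in KO only, over 842 bp.

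Replication-dependent histone genes, a list added after the data had been seen, end in a stem-loop and not in a poly(A) tail. Of 14 members, 8 held Pol II in either mESC library, and 9 (WT) and 8 (KO) in MEFs, beside 8.20%, 3.90%, 23.5% and 13.2% of all members. The median covered length was 174, 89, 427.5 and 386 bp. The medians were below those of the housekeeping and translation genes, which were 1914, 408, 3349 and 2374 bp, and Hist1h4m is an example with 375, 336, 509 and 499 bp in WT and KO mESCs and WT and KO MEFs. Hist2h3c2 was longer, with 2581, 2240, 3163 and 2145 bp. The members without Pol II in either mESC library had gene records of 1753 bp (Hist1h2bp) to 3788 bp (Hist1h2br). The records of those with it were shorter, from 312 bp (Hist1h4k) to 1020 bp (Hist2h3c2). All of them count in the medians. H2Bub1 was in 5 (WT) and 1 (KO) of the windows in mESCs, and in 1 (WT) and 4 (KO) in MEFs, beside 8.19%, 11.2%, 1.58% and 7.52% of all members.

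The remaining lists had few members. Of 24 factors of 3′ end processing and termination 4 were members (Cpsf2, Cpsf6, Cstf1 and Papola), and all 4 held Pol II in WT MEFs and 1 in KO MEFs, beside 23.5% and 13.2% of all members. Each had fewer bases in KO, as did 1664 of the 1920 occupied windows of all members, with 3983 and 975 bp beyond Cpsf6. Eny2, a subunit of the deubiquitylation module, was the only member among the H2B ubiquitin writers and erasers, with 1514 bp of Pol II in WT and 863 bp in KO MEFs in its window. That window held no H2Bub1 in any list, while the gene body of Eny2 did in all 4. Of 6 listed genes that the study displayed, 2 were members. Of these, Cmip had 303 and 0 bp of Pol II in its window in WT and KO mESCs, and 2231 and 353 bp in WT and KO MEFs. The window of Cmip held no H2Bub1 in any list, although the gene body did in all 4. Its RefSeq record runs 2076 bp beyond the GENCODE end.

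The windows overlapped between cell types to differing extents. Of the WT mESC Pol II windows 73.7% were also WT MEF windows, and 25.7% the other way, with 45870 peaks in the MEF and 17074 in the mESC list. Of the KO windows the shares were 64.1% and 19%. For H2Bub1 in WT they were 11.1% of mESC and 57.4% of MEF windows, and in KO 33.8% and 50.3%. Pol II was present in all 4 lists in 161 windows, H2Bub1 in all 4 in 55 and both marks in all 8 lists in 17. No list had a peak of either mark in 5213 of the 7709 windows. The overlaps in this paragraph were not computed over the windows of all 20807 genes. Whether they are particular to the members was therefore not tested.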

How the data were processed

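The authors sequenced H2Bub1 and Pol II ChIP libraries, aligned the reads to mm10 and called peaks. The submitters' processing notes name bcl2fastq 2.17.1.14, Bowtie 1.0.0 and MACS2 2.1.1.20160309, and the thresholds and control libraries of the calls are not given in the sources used here. The deposited broad (H2Bub1) and narrow (Pol II) peak lists give each peak's position, its fold enrichment as a ratio over background, its -log10 p-value and q-value, and for narrow peaks the summit offset. The lowest deposited -log10 q was 1.33 in the narrow and 1.00 in the broad lists. Read depth is unknown from these lists. Of 16 samples in the labels, 8 were not analysed here.

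Peaks were intersected with windows in Python 3.11.15 (numpy 2.4.6, pandas 2.3.3, scipy 1.17.1), with a minimum overlap of 1 bp and profiles in steps of 10 bp. The fold enrichment of a window is the highest of any peak touching it, which may have its summit in the gene. Shares carry exact Clopper-Pearson intervals and medians carry exact binomial intervals, at 95%. The scripts were tested on simulated data. Gene ends came from GENCODE M21, and sequences from the RefSeq GRCm38 genome with samtools 1.23.1 and pysam 0.24.0.

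The named genes and the gene lists were chosen with earlier results of these data known. Named genes were, per cell type, the top 3 by covered bases (H2Bub1) or fold enrichment (Pol II) among windows occupied in both genotypes, in WT alone and in KO alone, the top 6 by smallest Pol II coverage over the 4 lists, Atxn7l3, and members of the gene lists, with ties taken by symbol. Some genes that these rules select are not reported here.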

Additional observations from a re-analysis of the deposited data

Results flagged for a closer look

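With 1 library per group, the items below are those whose KO minus WT difference had opposite signs in the 2 cell types, and none of these differences between cell types was tested. They are 9 of 37 values compared in this way.

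Among gene lists, the number of contractile and matrix windows with Pol II differed by 2 in mESCs and by -6 in MEFs. The number of windows with H2Bub1 differed by -4 and 7 for housekeeping and translation genes, by -2 and 1 for pluripotency genes, and by -4 and 3 for replication-dependent histone genes, in mESCs and MEFs. The median of the highest fold enrichment per occupied window differed by -0.112 in mESCs and 0.392 in MEFs for H2Bub1, and by 0.0852 and -0.309 for Pol II. The share of Pol II windows whose peak lies over the gene end differed by 0.884 percentage points in mESCs and -4.65 in MEFs. Where promoter and window held Pol II in both genotypes, the median log2 promoter ratio was 0.13 in mESCs and -0.20 in MEFs. The median summit shift was -53 bp in mESCs and 21 bp in MEFs.

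Genes on the X chromosome were outside the rule and gave 556 windows by the same criteria. H2Bub1 was in 0 of them in WT mESCs, which allows up to 0.661% by the exact interval, and in 3.6% in KO mESCs. In MEFs it was in 0.180% (WT) and 1.98% (KO). Pol II was in 0.360% (WT) and 2.16% (KO) in mESCs and in 10.8% (WT) and 4.86% (KO) in MEFs. The mESC Pol II difference on the X chromosome was thus opposite to that of the members, which had 8.20% (WT) and 3.90% (KO). The share of all peaks that lay on the X chromosome was 0.569% and 2.20% for H2Bub1 and 0.855% and 2.76% for Pol II in WT and KO mESCs. In MEFs it was 0.735% and 2.63% for H2Bub1 and 2.12% and 2.1% for Pol II.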

How the results depend on the processing

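No paired analysis was possible because each group has 1 library. Of 152 values under alternatives, 132 stayed within 1.5 times the main value (ratios and shares) or within its interval (distances). The other 20 moved further. No KO over WT ratio crossed 1 and no median last base crossed the gene end. Shares and Pol II maxima had no such line to cross. The KO over WT window ratio ranged from 1.55 to 2.37 (mESCs) and 6.86 to 23.7 (MEFs) for H2Bub1, and from 0.365 to 0.492 and 0.429 to 0.509 for Pol II. Windows with H2Bub1 in KO only outnumbered those in WT only in 9 of 9 settings, main included, in both cell types, and those with Pol II did so in 0 of 9. The last H2Bub1 base was further downstream in KO in 8 of 8. With peaks of -log10 q of at least 3, H2Bub1 was in KO only in 2.30% and in WT only in 0.415% of mESC windows, the MEF ratio was 23.7 with 0.0130% in WT only, and the last base lay at -26929 (WT) and -20637.5 bp (KO) in mESCs and -31084 and -9438 bp in MEFs. With equal numbers of peaks, Pol II was in WT only in 3.09% of mESC windows, and the last base lay at -6918 (WT) and -6024 bp (KO) in mESCs and at -16283 and -8114 bp in MEFs. With 20 kb clear of genes it lay at -8632 and -5492.5 bp in WT and KO mESCs and -17889 bp in WT MEFs, for genes overlapping no other record at -4634, -3099, -10228 and -3455 bp (WT and KO mESCs, WT and KO MEFs), and with well-supported transcript ends at -4961 bp in KO MEFs. Counting windows covered by at least 10 percent, Pol II was in KO only in 0.324% of mESC windows. The Pol II maximum turned its WT and KO order in 3 cases: MEFs with 20 kb clear (1620 bp WT, 2010 KO) or peaks joined (1470, 1800), and mESCs with well-supported ends (1040, 1230). The cause of these moves was not tested. A set without RefSeq records beyond the end was chosen after seeing the data and moved no value further. Read depth, unknown here, limits which weak peaks could be called.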
